A study of Homo sapiens with 4 samples.

Results

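The genes described here encode the mitogen-activated protein kinase (MAP kinase) cascade, the dual-specificity phosphatases (DUSPs) and the Sprouty proteins. They were chosen by name. A gene was taken where its symbol on the array platform began with DUSP, MAPK, MAP2K, MAP3K, MAP4K, SPRY or SPRED and a digit, and where it had several transcript clusters (the array's unit of measurement, a set of probes for 1 transcribed locus) the brightest was used. This gave 73 genes, measured by 81 clusters, of the 14884 genes with a name. Of the 73, 67 encode a kinase, a phosphatase, a scaffold or partner, or a Sprouty protein. The other 6 are the pseudogenes MAP2K4P1 and MAPK8IP1P2, the antisense or divergent transcripts MAP3K14-AS1, MAP3K20-AS1 and MAP4K3-DT, and MAP3K7CL, which has no kinase domain. The symbol does not choose on function, since several DUSPs act on substrates other than MAP kinases.

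The cells were HCT116, a line from a human colorectal carcinoma. The 4 conditions were untreated cells, cells with 1 mM hydroxyurea, cells with 2 µM MS-275 and cells with both (MS-275/hydroxyurea), each drug for 24 h. Hydroxyurea inhibits ribonucleotide reductase and so slows replication forks for want of nucleotides, and MS-275 (entinostat) inhibits class I histone deacetylases (HDACs). Gene expression in each condition was measured on 1 GeneChip Human Gene 2.0 ST array, so no difference below has a replicate check, and no error or p-value is given. All values are RMA intensities on a linear scale, and a fold is the ratio of 2 of them. Readings of a gene are given, unless said otherwise, in the order untreated, hydroxyurea, MS-275 and both. Probes differ in brightness, so the intensity of a gene is compared between conditions and never with that of another gene. RNA came from whole cultures, in which a shift in the mix of cells (in the cell cycle, for example) and a change in RNA per cell cannot be told apart.

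Over all clusters the array medians lay between 45.9 and 47.1. Of 10 named markers of colon epithelium, 6 passed the filter on dim genes. This filter kept genes whose mean log2 intensity was at or above the median of the named clusters, an intensity of 90.5. None of the named markers of leukocytes (2), endothelium (2) and fibroblasts (1) passed it. Over all named genes 7649 passed, and 56 of the 73 genes of the cascade did. The 17 that did not were MAP4K1, MAP3K15, MAP3K19, MAP2K6, MAPK10, MAPK11, MAPK8IP1, DUSP13A, DUSP15, DUSP21, DUSP26, DUSP28, DUSP29 and 4 of the 6 genes counted apart (MAP2K4P1, MAP3K20-AS1, MAP3K7CL and MAP4K3-DT). MAPK8 (JNK1), MAPK14 (p38α), SPRED1 and SPRED2 are not analysed here.

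A MAP kinase cascade passes a signal through kinases that phosphorylate each other in turn. A MAP3K activates a MAP2K, which activates a MAP kinase, and MAP4Ks can act above the MAP3Ks. The ERK branch is driven by growth factor receptors and RAS, whereas the JNK and p38 branches answer to cytokines and to stress, DNA damage included. The signal is ended by MAP kinase phosphatases (MKPs), a class of DUSPs that remove phosphate from both the threonine and the tyrosine of the activation loop. Several MKP genes and the Sprouty genes are themselves transcribed in answer to ERK activity, so that their products form negative feedback loops. In colorectal carcinoma the ERK branch is often overactive.

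Over the 56 genes past the filter, the median differed little from untreated cells with either drug alone. By tier, the median log2 difference with MS-275 ran from -0.35 (2 MAP4K genes) to 0.25 (3 scaffold or partner genes). It was -0.004 over the 15 MAP3K genes, 0.01 over the 8 MAP kinases, 0.04 over the 10 MKP genes and 0.24 over the 8 other DUSPs. When MS-275 was added to hydroxyurea, the MAP4K median was -0.24. Those of the scaffold or partner genes and other DUSPs were then -0.001 and 0.004. With hydroxyurea alone the tier medians ran from -0.13 (MAP4K) to 0.23 (MKP). Within 1.2-fold of untreated cells were 48.2% of the 56 genes with MS-275 (55.3% of all genes) and 71.4% with hydroxyurea (72.0%). Of the 10 genes that were at least 1.5-fold higher with both drugs, 6 were phosphatases. DUSP10, a phosphatase of JNK and p38, was higher with MS-275 whether hydroxyurea was present or not, as was the atypical MAP kinase MAPK4, and the p38 kinase MAPK13 was lower in both cases. MS-275 was compared with untreated cells and, on the other 2 arrays, MS-275/hydroxyurea with hydroxyurea. At least 1.5-fold higher in both of these comparisons were 2 of the 56 genes (3.57%), against 371 of 7649 genes (4.85%), and at least 1.5-fold lower was 1 (1.79%), against 223 (2.92%). For hydroxyurea, without and with MS-275, the counts were 0 higher, against 104 of all genes (1.36%), and 0 lower, against 21 (0.275%). The shares of the cascade were thus no higher than those of all genes. The median log2 difference with MS-275 was 0.03 over the 56 genes and -0.01 over all genes, and with hydroxyurea it was 0.05 and 0.01.

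The joint treatment gave 10 of the 56 genes (17.9%) at 1.5-fold or more above untreated cells, against 895 of 7649 (11.7%), and 2 (3.57%) were at least 1.5-fold lower, against 523 (6.84%). The 10 were DUSP1, DUSP5, DUSP6, DUSP10, DUSP14, DUSP19, MAP3K3, MAP3K8, MAPK4 and SPRY3, and the 2 were MAPK13 and SPRY4. MAP3K8 and SPRY3 were below the intensity of the filter in untreated cells and passed it through their treated arrays. Among genes at or above that intensity in untreated cells the count was 8 of 54 (14.8%), against 690 of 7314 (9.43%). The 8 still include DUSP10, which read 90.6 in untreated cells, at the edge of the filter. Its mean over the 2 arrays without MS-275 was under the filter, so it too passed through its arrays with MS-275. The median log2 difference with both drugs was 0.10 over the 56 genes and 0.01 over all genes. No test can set these shares apart with 1 array per condition. On all 3 treated arrays, 14 of the 56 genes stayed within 1.2-fold of untreated cells, as did 2442 of the 7649 (31.9%).

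**Figure D1:**
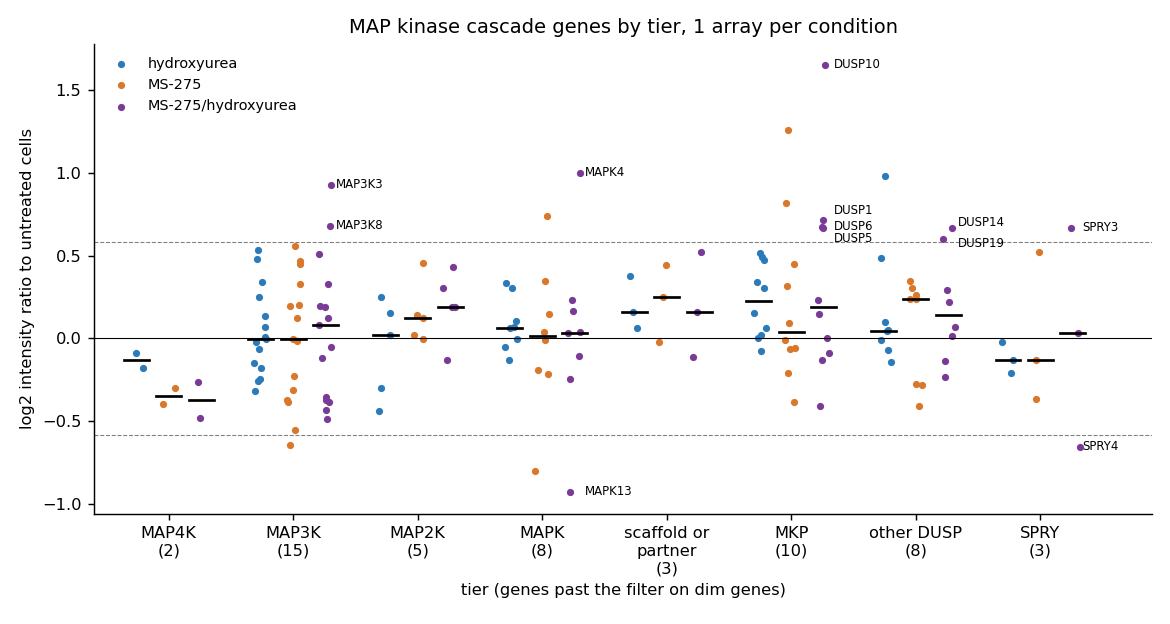
Log2 intensity ratio to untreated cells (vertical axis) for each gene past the filter on dim genes, by tier (horizontal axis, number of genes in parentheses), with hydroxyurea (blue), MS-275 (orange) and MS-275/hydroxyurea (purple). Each point is 1 gene on 1 array, black bars are tier medians and dashed lines mark 1.5-fold. DUSP10 stood highest, at a ratio of 3.14 with both drugs (1.65 on the log2 scale), and MAPK13 lowest, at -0.93.

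Of the 56 genes past the filter, 18 were DUSPs, and 6 of these 18 (33.3%) were at least 1.5-fold higher with both drugs, beside 4 of the other 38 (10.5%) and 11.7% of all genes. Of the 6, DUSP19 fell short of 1.5-fold with renewed quantile normalization and with 16 added to every intensity, and DUSP5 with the mean of its clusters. All 10 MKP genes passed the filter. DUSP10 (MKP5) had an intensity of 90.6 untreated, 85.8 after hydroxyurea, 217 after MS-275 and 284 after both drugs. Both arrays with MS-275 were thus above both arrays without it, and hydroxyurea alone left it at 0.95 of the untreated value. The reading was 2.40-fold higher with MS-275 in the absence of hydroxyurea and 3.31-fold higher in its presence. These ratios were higher than those of 99.1% and 99.5% of all genes past the filter. In untreated cells DUSP10 lay just above the intensity of the filter and with hydroxyurea just below it, so that it passed through its MS-275 arrays, and the 3.31-fold rests on the dim reading. With 16 added to every intensity its log2 differences were 1.13 and 1.56 in place of 1.26 and 1.73.

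DUSP6 (MKP3), a cytoplasmic phosphatase of ERK and a feedback target of it, had intensities of 419, 530.4, 738 and 669. It was 1.76-fold higher with MS-275 alone and 1.26-fold higher when MS-275 was added to hydroxyurea, so it was the only MKP gene besides DUSP10 past 1.5-fold with MS-275 alone, but not in both backgrounds. Its difference with both drugs fell short of the sum of the differences with each drug by 0.48 on the log2 scale.

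DUSP1 (MKP1), an immediate early phosphatase of the nucleus that acts on p38, JNK and ERK, read 186, 262, 232 and 306. Each drug alone gave less than 1.5-fold (1.41-fold with hydroxyurea, 1.25-fold with MS-275), and the joint treatment gave 1.64-fold. DUSP5, a nuclear ERK phosphatase, read 545, 757, 746 and 867. It too was higher on every treated array and highest with both drugs, at 1.59-fold. A second and dim DUSP5 cluster (24.9 to 29.4) was 1.18-fold higher with both drugs.

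The remaining 6 MKP genes stayed within 1.5-fold of untreated cells on every array. DUSP7, which acts on ERK, went from 553 to 789.7 with hydroxyurea, a 1.43-fold difference, and was at 589 with MS-275 and 649 with both. DUSP9, another ERK phosphatase, read 159 and 167 on the arrays without MS-275 and 122 and 120.1 on those with it, so that it was 1.31 and 1.39 times lower with MS-275. DUSP4 (355, 360.3, 341 and 325), a nuclear phosphatase of ERK, and DUSP16 (185, 185, 183 and 174), which acts on JNK and p38, hardly differed between the 4 arrays. DUSP16 was the MKP gene nearest to no change, never more than 1.06-fold from untreated cells. DUSP2 and DUSP8 lay between 148 and 211 on the 4 arrays and also stayed within 1.24-fold of untreated cells.

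With hydroxyurea 9 of the 10 MKP genes were above their untreated value, as were 4023 of the 7649 genes (52.6%). Their median log2 difference was 0.23, although none passed 1.5-fold (1 of the 56 genes did, DUSP14, or 1.79%, against 3.12% of all genes). Of these 9, DUSP16 and DUSP4 were at 1.00-fold and 1.01-fold, and with renewed quantile normalization 8 of the 10 were above. With MS-275 alone 5 of the 10 were above untreated cells and 5 below. The MKP genes were not shifted together with MS-275, since DUSP10 and DUSP6 were high and DUSP9 was low on the same array.

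Of the 14 DUSP genes outside the MKP class, 8 passed the filter. DUSP14 (MKP6), a small phosphatase reported to act on JNK and ERK and on the TAK1 complex, had the largest hydroxyurea difference of all 56 genes. It read 383, 757, 459 and 608. Hydroxyurea alone gave 1.98-fold, more than in 99.4% of all genes past the filter, and 1.32-fold when added to MS-275. Its reading with both drugs was below that with hydroxyurea alone, and its departure from the sum of the single differences was the lowest among the 56 genes, at -0.58 on the log2 scale. DUSP11, an RNA triphosphatase, was 1.40-fold higher with hydroxyurea (512 against 366) and at 302 and 369.7 with MS-275 and with both. DUSP19, a phosphatase that binds the JNK pathway kinase MAP2K7, read 98.9, 102, 117 and 150.1 and was 1.52-fold higher with both drugs. DUSP3 (VHR), which acts on ERK and JNK, read 182, 195, 150.4 and 155 and was the member of this tier nearest to no change. The other 4 (DUSP12, DUSP18, DUSP22 and DUSP23) stayed within 1.5-fold of untreated cells on every array.

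**Figure D2:**
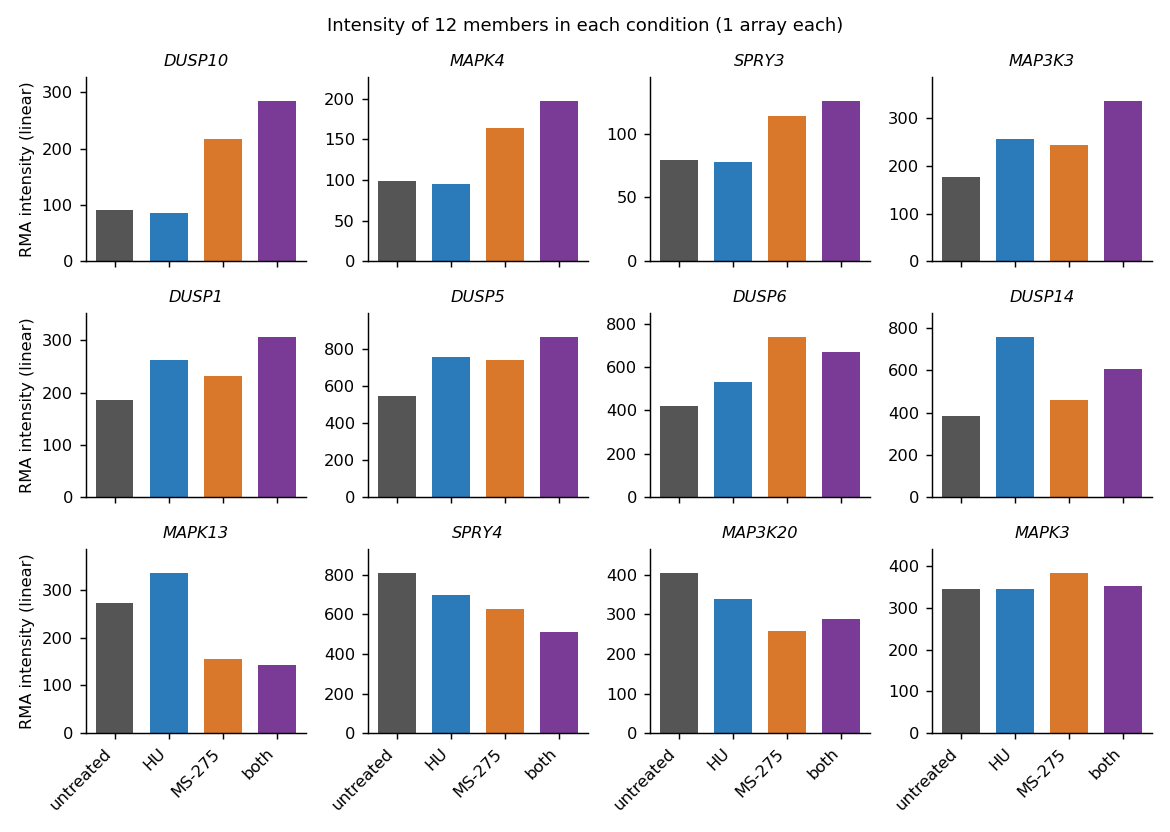
RMA intensity on a linear scale starting at 0 (vertical axes) of 12 genes in each condition (HU, hydroxyurea). Each bar is 1 array, so there are no error bars. DUSP10 and MAPK4 were high on both arrays with MS-275, MAP3K3, DUSP1 and DUSP5 were highest with both drugs, DUSP14 was highest with hydroxyurea (757), and MAPK3 (ERK1) read 344 to 383.

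The promoters of DUSP10, MAPK4 and MAPK13, the genes past 1.5-fold with MS-275 in both backgrounds, and of DUSP1, whose promoter holds a motif that few others do, are shown as the 250 bases before the start site (RefSeq, GRCh38.p14). Capitals mark matches on either strand to 8 motifs: the cAMP response element TGACGTCA and its core TGACG, which lies inside it, the AP-1 motif TGANTCA, the ETS motif CCGGAAG, the GC box GGGCGG, the TATA motif TATAAA, the E-box CACGTG and the CCAAT box.
DUSP10: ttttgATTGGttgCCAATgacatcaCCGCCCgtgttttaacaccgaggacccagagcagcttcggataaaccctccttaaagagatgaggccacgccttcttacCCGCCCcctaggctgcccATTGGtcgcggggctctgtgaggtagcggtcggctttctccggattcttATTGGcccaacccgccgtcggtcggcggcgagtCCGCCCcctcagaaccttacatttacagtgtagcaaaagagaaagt
MAPK4: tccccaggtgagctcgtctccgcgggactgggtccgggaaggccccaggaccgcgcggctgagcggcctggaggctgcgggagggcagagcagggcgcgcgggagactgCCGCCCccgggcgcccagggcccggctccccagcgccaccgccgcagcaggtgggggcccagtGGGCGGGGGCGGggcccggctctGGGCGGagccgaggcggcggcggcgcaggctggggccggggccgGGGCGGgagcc
MAPK13: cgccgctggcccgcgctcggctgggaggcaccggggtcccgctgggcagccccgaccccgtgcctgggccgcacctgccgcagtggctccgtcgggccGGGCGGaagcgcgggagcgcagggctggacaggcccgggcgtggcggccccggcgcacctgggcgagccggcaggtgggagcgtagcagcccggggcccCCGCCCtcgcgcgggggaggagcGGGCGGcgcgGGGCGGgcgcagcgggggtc
DUSP1: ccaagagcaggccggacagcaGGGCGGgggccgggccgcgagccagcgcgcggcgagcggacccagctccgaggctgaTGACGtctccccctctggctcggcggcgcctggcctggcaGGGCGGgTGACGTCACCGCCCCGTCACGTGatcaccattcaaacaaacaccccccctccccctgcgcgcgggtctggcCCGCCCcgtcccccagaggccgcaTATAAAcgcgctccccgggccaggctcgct
They lie at chr1:221742090-221742339 on the minus strand (DUSP10), chr18:50559837-50560086 on the plus strand (MAPK4), chr6:36130263-36130512 on the plus strand (MAPK13) and chr5:172771196-172771445 on the minus strand (DUSP1).

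The window of DUSP10 differed from the others in composition. It was 56.4% G or C, near the median of 58.0% over all 35116 windows, and held 4 CCAAT boxes and 3 GC boxes. Those of MAPK4 and MAPK13 were 83.2% and 84.4% G or C and held 5 and 4 GC boxes and none of the other motifs. MAPK4 was higher and MAPK13 lower with MS-275, and in these motifs their windows were alike. The window of DUSP1 was 74.4% G or C and held the full TGACGTCA once, beginning 125 bases before the start site, 4 matches to its core, 4 GC boxes, an E-box and a TATA motif beginning 30 bases before the start site.

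A window was given for 61 of the 73 genes and for 51 of the 56 past the filter. The full TGACGTCA was in 4 of these 51 (7.84%; DUSP1, DUSP8, MAP3K13 and MAPK8IP3) and in 1.65% of all windows. Its core was in 17 (33.3%) and in 21.2% of all windows. A GC box was in 43 (84.3%) against 42.6%, the CCAAT box in 12 (23.5%) against 32.0%, the ETS motif in 4 (7.84%) against 8.52%, and the E-box in 4 (7.84%) against 6.34%. The AP-1 motif was in 1 (1.96%) against 6.57%, and the TATA motif was in 1 (1.96%), DUSP1, against 10.7%. All windows include those of genes not measured here, so the shares differ in more than the gene family. A match describes the letters only and does not show that a factor binds there.

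Among the MAP kinases, 8 of 10 genes passed the filter, and 2 of them differed in opposite directions with MS-275. MAPK4 (ERK4), an atypical MAP kinase that lacks the usual activation motif and partners with the kinase MK5, read 98.5, 95.2, 164 and 197. Both arrays with MS-275 were above both without it, 1.67-fold in the absence and 2.07-fold in the presence of hydroxyurea. MAPK13 (p38δ), a p38 kinase of epithelia, read 271, 335, 156 and 142. It was 1.74 times lower with MS-275 alone and 2.35 times lower when MS-275 was added to hydroxyurea. In the latter comparison only 0.4% of all genes past the filter lay lower, and hydroxyurea alone left it 1.23-fold above untreated cells.

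The other 6 MAP kinases past the filter stayed within 1.5-fold of untreated cells on every array. MAPK3 (ERK1) read 346, 344, 383 and 354, never more than 1.11-fold from untreated cells. MAPK9 (JNK2) read 405, 371, 355 and 475. It was below untreated cells with each drug alone and above with both, so its departure from the sum of the single differences was the highest of the 56 genes, at 0.55 on the log2 scale, or 1.46-fold. MAPK12 (p38γ) read 213, 269, 219 and 198, highest with hydroxyurea alone. The remaining ones were MAPK6 (ERK3), MAPK7 (ERK5) and MAPK15 (ERK8). Of the 5 MAP2K genes past the filter, none passed 1.5-fold in any comparison of a treated array with untreated cells. MAP2K1 (MEK1), which activates ERK, read 751, 834, 749 and 927. MAP2K2 (MEK2) read 133, 158, 182 and 151, higher with MS-275 alone (1.37-fold) than with both drugs (1.14-fold), and fell short of additivity by 0.52 on the log2 scale. MAP2K4, which activates JNK and p38, read 139, 113, 154 and 159, and was the MAP2K gene nearest to no change.

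Of the 17 MAP3K genes, 15 passed the filter. MAP3K3 (MEKK3), which feeds the ERK5 and p38 branches and NF-κB, was higher on each treated array, with readings of 177, 257, 245 and 336. It was 1.45-fold higher with hydroxyurea, 1.38-fold with MS-275 and 1.90-fold with both drugs, more than in 95.3% of all genes past the filter. Its differences with each drug added up to that with both within 0.08 on the log2 scale. MAP3K8 (TPL2), an activator of MEK1 and ERK, read 69.8, 97.2, 103 and 112, and was 1.60-fold higher with both drugs from a reading under the filter. With 16 added to every intensity it was no longer past 1.5-fold, and the same held for SPRY3. MAP3K13 (LZK), a mixed-lineage kinase of the JNK branch, read 118 and 107 without MS-275 and 162 and 169 with it, or 1.37-fold and 1.58-fold.

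Other MAP3K genes were lower with MS-275. MAP3K20 (ZAK), the kinase of the ribotoxic stress response, read 405, 338, 259 and 289. It was 1.56 times lower with MS-275 alone, and 1.17 times lower when MS-275 was added to hydroxyurea. MAP3K6 (ASK2), a partner of ASK1, read 222, 264, 151 and 170.3 and was 1.47 and 1.55 times lower. MAP3K5 (ASK1), the oxidative stress kinase of the JNK and p38 branches, read 191, 153, 148 and 141, lower on every treated array but by less than 1.5-fold. MAP3K11 (MLK3) read 189, 181, 153 and 146 and followed the same order. MAP3K14 (NIK), the kinase of noncanonical NF-κB signalling, stayed within 1.10-fold of untreated cells at 112, 123, 111 and 122. Over the 15 genes the median log2 difference was near 0 with each drug alone and 0.08 with both (0.01 over all genes). With both drugs 2 genes were past 1.5-fold higher, MAP3K3 and MAP3K8 (11.7% of all genes were), and 0 lower (6.84%).

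MAP4K4 and MAP4K5, kinases of the STE20 family that act above JNK, were lower on all 3 treated arrays. MAP4K5 read 508, 449, 412 and 364 and was 1.40 times lower with both drugs, and MAP4K4 read 329, 310.3, 249.8 and 274. Among the scaffolds and partners, MAPK8IP2 (JIP2) and MAPK8IP3 (JIP3), which hold JNK modules together, stayed within 1.5-fold of untreated cells, as did MAPK1IP1L (948, 992, 933 and 878). MAPK8IP1 (JIP1) did not pass the filter, and its clusters disagreed. The cluster used was 1.18-fold higher with MS-275, and a dimmer one, which went from 29.6 to 84.0, was 2.83-fold higher.

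The 3 Sprouty genes, feedback inhibitors of receptor tyrosine kinase signalling to ERK, differed in direction. SPRY4 read 808, 699.7, 627 and 513. Every treated array was below the untreated one, and the joint treatment was the lowest, at 1.57 times lower. SPRY3 read 79.1 and 77.9 without MS-275 and 114 and 125 with it, or 1.44-fold and 1.61-fold higher. Its second cluster (54.7, 59.5, 100.5 and 103) was 1.84-fold and 1.73-fold higher. SPRY2 read 151, 138, 138 and 155 and hardly differed.

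**Figure D3:**
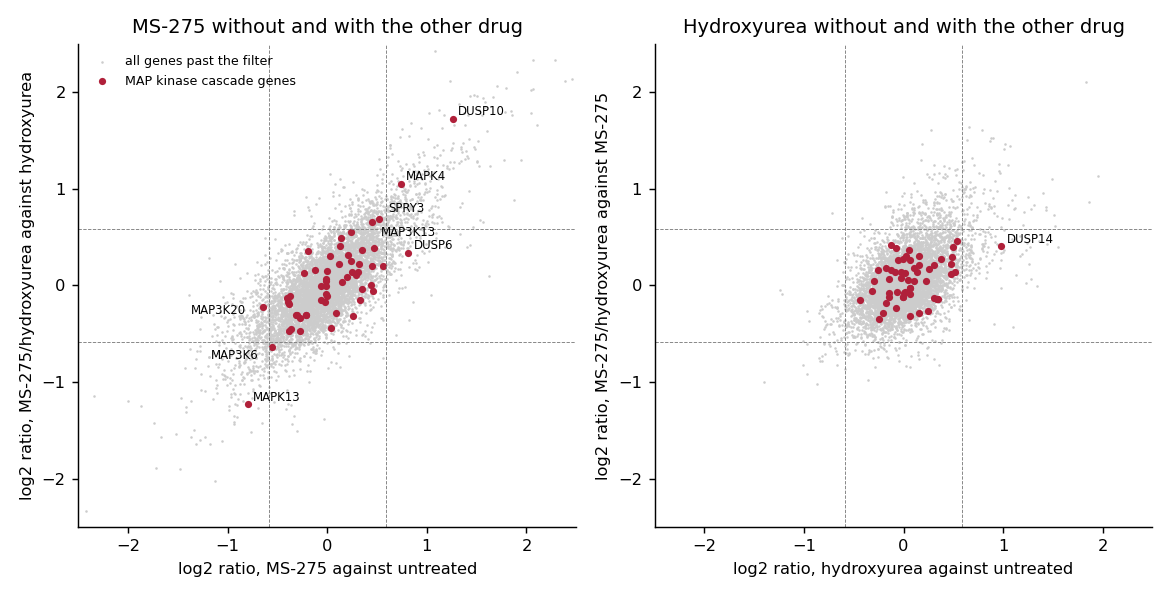
Log2 ratio of each gene past the filter with a drug in the absence (horizontal axis) and in the presence (vertical axis) of the other drug, for MS-275 (left) and hydroxyurea (right), with 1 array per condition. Grey points are all genes, red points the 56 genes of the cascade, and dashed lines mark 1.5-fold (6 grey points lie outside the left panel). On the left DUSP10 and MAPK4 lie past both upper lines and MAPK13 past both lower lines, and on the right no red point lies past both upper or both lower lines.

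The single comparisons gave shares of the same order as the background. With MS-275 alone 3 of 56 genes (5.36%) were at least 1.5-fold higher (DUSP10, DUSP6 and MAPK4), against 6.94% of all genes, and 2 (3.57%) were lower (MAPK13 and MAP3K20), against 6.84%. When MS-275 was added to hydroxyurea 4 (7.14%) were higher (DUSP10, MAPK4, SPRY3 and MAP3K13), against 8.67%, and 2 (3.57%) lower (MAPK13 and MAP3K6), against 5.41%. With hydroxyurea alone 0 were lower, against 1.27%. When hydroxyurea was added to MS-275, 0 were higher, against 4.84%, and 0 lower, against 1.03%. These comparisons share arrays with one another, and only the 2 comparisons of each drug without and with the other share none.

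The joint treatment was also set against the sum of the single ones. None of the 56 genes departed from that sum by 1.5-fold in either direction, against 2.72% of all genes above it and 1.57% below it. On all 3 treated arrays 17 of the 56 genes (30.4%) were above untreated cells, against 2017 of the 7649 (26.4%), and 10 (17.9%) were below, against 1913. Of the 17, 10 were highest with both drugs, or 17.9% of the 56 genes, against 1280 of all genes (16.7%). These were DUSP1, DUSP5, DUSP19, DUSP23, MAP2K3, MAP3K3, MAP3K8, MAP3K9, MAPK8IP2 and the pseudogene MAPK8IP1P2. Probes of MAPK8IP1P2 may also bind the transcript of its parent gene. The other 7 of the 17 (DUSP14, DUSP6, DUSP7, MAP2K2, MAP3K12, MAPK15 and MAPK8IP3) were higher with at least 1 of the single drugs than with the joint treatment. Below on every treated array and lowest with both drugs were 5 genes (8.93%), against 1057 of all genes (13.8%). The 5 were SPRY4, MAP4K5, MAP3K5, MAP3K4 and MAP3K11.

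Genes that feed the cascade or answer to it were taken from lists chosen with earlier results of these data known. Among the receptors and ligands that feed ERK, 17 of 21 named genes passed the filter, and with both drugs 4 were at least 1.5-fold higher (FGF18, HBEGF, EPHA2 and FGFR2) and 3 lower (EREG, MET and ERRFI1), against 11.7% and 6.84% of all genes. ERRFI1, which the list also holds, encodes a feedback inhibitor of the EGF receptor and not a receptor or ligand. FGF18, a growth factor for FGF receptors, read 80.3, 188, 233 and 299.7, or 3.73-fold higher with both. HBEGF, a ligand of the EGF receptor, read 104, 205, 145 and 220.4, and was high on both arrays with hydroxyurea. EREG, also an EGF receptor ligand, read 3882 in untreated cells, 1388 with MS-275 and 892 with both, 4.35 times lower with both drugs. MET, the receptor of hepatocyte growth factor, read 2256, 1939, 1478 and 1302, lower on each treated array and 1.73 times lower with both. INSR, the insulin receptor, was the gene of this list nearest to no change, at 201, 181, 193 and 191.

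The RAS and RAF module, the first relay below the receptors, had few such genes. All 19 named genes passed the filter, and with both drugs 2 were at least 1.5-fold higher (11.7% of all genes were) and 0 lower (6.84%). Both were below the intensity of the filter in untreated cells. GAB1, the docking protein of receptor tyrosine kinases, read 60.5, 73.3, 133 and 149, or 2.47-fold higher with both drugs, and MRAS, a RAS relative that takes part in RAF activation, was 1.74-fold higher. RASA2, which turns RAS off, was the gene of the list nearest to no change, at 212, 193, 191 and 201. Of the 11 listed kinases downstream of MAP kinases 5 were named, and all 5 passed the filter. With both drugs 1 of the 5 was at least 1.5-fold higher (11.7% of all genes were) and 0 lower (6.84%). With MS-275 alone 1 was higher (6.94%) and 1 lower (6.84%). MKNK1, which phosphorylates the translation factor eIF4E, was 1.70-fold higher with both drugs and MAPKAPK5 (MK5), the partner of MAPK4, was 1.51 times lower with MS-275 alone and 1.23 times lower when MS-275 was added to hydroxyurea. Of the 24 listed genes of stress inputs to JNK and p38, 12 were named, and all 12 passed the filter. With both drugs 1 of the 12 was at least 1.5-fold higher (11.7% of all genes were) and 0 lower (6.84%). The 1 was TAB3 (1.66-fold), an adaptor of the kinase TAK1 (MAP3K7).

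Of the transcription factors and early target genes at the end of the cascade, 24 of 26 named genes passed the filter. With MS-275 alone 7 of the 24 were at least 1.5-fold higher (6.94% of all genes were) and 1 lower (6.84%), and with both drugs 6 were higher (11.7%) and 2 lower (6.84%). Of these 7 and of these 6, the same 4 (JUN, ETS1, ATF3 and MEF2C) were below the intensity of the filter in untreated cells and passed it through their treated arrays. FOS read 103 and 101 without MS-275 and 191 and 223 with it, or 1.86-fold and 2.20-fold higher. FOSL1 (FRA1), another FOS family member and a target of ERK, went the other way, from 594 and 772 without MS-275 to 253 and 260.2 with it, or 2.35 and 2.97 times lower. JUN, which dimerises with either of them, was higher on every treated array, with readings of 78.4, 154, 208 and 204. ETS1, a transcription factor phosphorylated by ERK, read 65.1, 64.4, 149.6 and 149.5, so that MS-275 gave 2.30-fold and 2.32-fold and hydroxyurea 0.99-fold. EGR1, an immediate early gene, read 676, 722, 1100.3 and 1134, and MYC read 632, 553, 589.6 and 389.8, 1.62 times lower with both drugs. FGF18 was also below the intensity of the filter in untreated cells, and background compresses ratios there.

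**Figure D4:**
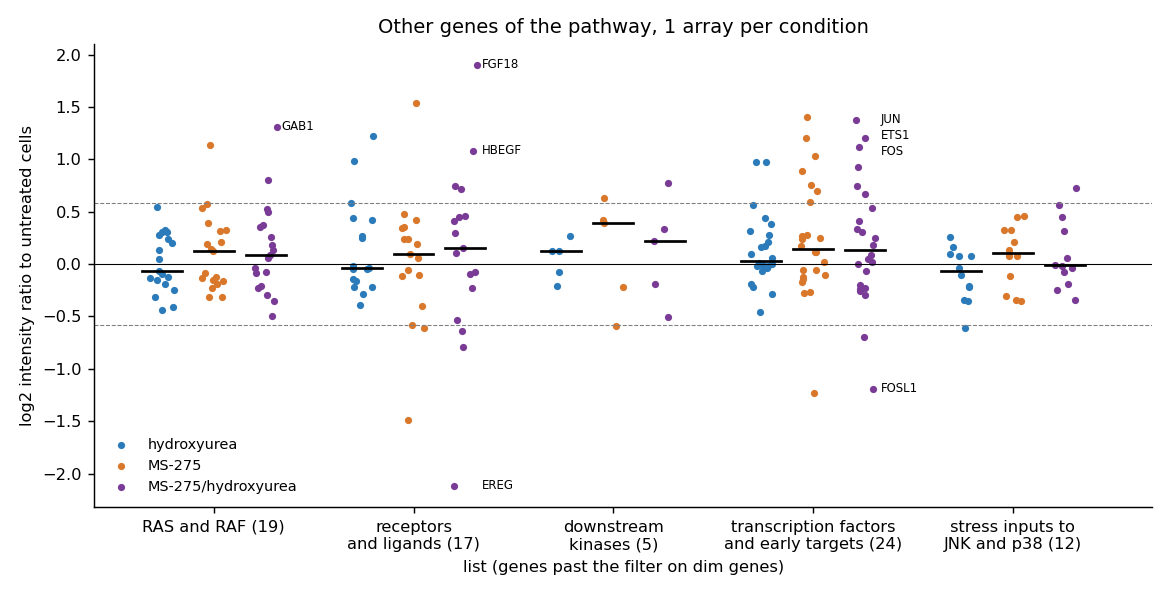
Log2 intensity ratio to untreated cells (vertical axis) for genes past the filter in 5 lists of other pathway genes (horizontal axis, number of genes in parentheses), with hydroxyurea (blue), MS-275 (orange) and MS-275/hydroxyurea (purple). Each point is 1 gene on 1 array, black bars are list medians and dashed lines mark 1.5-fold. FGF18 stood highest with both drugs, at 3.73-fold, and EREG lowest, at 4.35 times below untreated cells.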

How the data were processed

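Gene expression was measured in HCT116 cells in 4 conditions, with 1 GeneChip Human Gene 2.0 ST array each. The authors summarised the arrays by RMA and deposited the intensity of each of 53617 transcript clusters on a linear scale, as the range of the values shows. The RMA software is not given in the sources used here. A probe table of the platform named 16098 clusters, all with 1 symbol, for 14884 genes. The other 37519 were not used here.

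Each difference is the log2 of a ratio of 2 intensities, and no pseudocount was added. The tools were Python 3.11.15, pandas 2.3.3, numpy 2.4.6 and, for the figures, matplotlib 3.10.9. Groups came from the labels, and no replicate exists, so no test was run and the counts over all genes past the filter serve as background. Precision is limited by there being 1 array per condition. Members with a cluster past 1.5-fold in both backgrounds, the 8 highest and 8 lowest with both drugs, the 4 highest and 4 lowest by non-additivity (how far the log2 difference of the joint treatment departs from that expected if the single differences add), fixed genes and the member of each tier nearest to no change are named, and further members and pathway genes were named after their values were seen. The genes of the cascade, the tiers and the lists were chosen with earlier results of these data known. No gene of the list of other MAP kinase phosphatases outside the DUSP family had a named cluster, and that list is not analysed here. Only the rule for genes higher with MS-275 in both backgrounds was run on simulated data, without the filter and with noise set from these data. The filter, the other counts and the motif matches were not tested in this way. Promoter windows are from RefSeq (GRCh38.p14).

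The alternatives were no filter, a higher filter (75th percentile of the named clusters, 238.5), arrays centred on their medians, renewed quantile normalization, the mean of a gene's clusters, 16 added to every intensity, and a 2-fold rule.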

Additional observations from a re-analysis of the deposited data

How the results depend on the processing

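Of the values of named genes of the cascade under the alternatives, 612 moved by less than 0.124 on the log2 scale (the robust SD of non-additivity over 2), 8 moved further (DUSP10 with 16 added, and DUSP5 and MAPK1IP1L with the mean of clusters), and 0 of those past 1.5-fold changed sign. Of the counts and medians, 86 stayed within 1.5 times or within that SD and 14 did not. Centring and renewed quantile normalization moved the median of all genes by less than 0.1 on the log2 scale, and both kept the genes past 1.5-fold with MS-275 in both backgrounds, DUSP10, MAPK4 and MAPK13. With a filter at the 75th percentile, which removes dim genes, the genes higher with MS-275 in both backgrounds fell from 2 to 0. Among all genes past that filter 3.5% were. Those lower fell from 1 to 0 (2.87% of all genes). Those higher with both drugs than in untreated cells went from 10 to 5 (DUSP1, DUSP5, DUSP6, DUSP14 and MAP3K3), against 10.1% of all genes. Those lower went from 2 to 1 (SPRY4), against 7.8%. With a 2-fold rule the same counts were 1 (DUSP10), 0, 1 (DUSP10) and 0, against 1.19%, 0.366%, 3.78% and 1.05% of all genes. Counted without the other drug alone, 2 genes were lower with MS-275 (6.84% of all genes) and 1 was higher with hydroxyurea (DUSP14), against 3.12%. Counted with the other drug present, 4 were higher and 2 lower with MS-275, against 8.67% and 5.41% of all genes. With no filter the count below additivity went from 0 to 1 (DUSP28), against 4.17% of all genes. With renewed quantile normalization it went from 0 to 1 (DUSP14), against 1.69%. The count higher with both drugs was 7 of 56 with 16 added, against 10.4% of all genes. It was 8 with the mean of clusters (11.5%), 9 of 56 with quantile normalization (11.5%) and 12 of 73 with no filter (8.79%). Replicates could not be paired, because each condition has 1 array and no replicate number can serve as a block. For the same reason no replicate could be left out. Each drug was compared without and with the other by counts only, with no test. Signal over background limits the folds of dim genes, as detection calls were not used here.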
